A study of Mus musculus with 4 samples.

Results

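Undifferentiated spermatogonia are the mitotic germ cells of the testis among which the stem cells of the male germ line are found. They are recognised by a set of transcription factors, surface proteins and enzymes, of which 9 are described here: Zbtb16, Foxo1, Uchl1, Itga6, Thy1, Cxcr4, Mcam, Upp1 and Shisa6. The 9 genes are of 18193 named on the arrays. They were chosen by symbol and carry 16 of 45037 probe sets. For a gene with several probe sets, the one with the highest mean over the arrays leads. On that probe set 6 genes were above the detection floor on all 4 arrays and 8 on at least 1, and Shisa6 was under it everywhere.

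Total RNA from cultured mouse cells was measured on Affymetrix arrays, 1 for each of 4 groups. The groups were multipotent germline stem (mGS) cells, which resemble embryonic stem cells and arise in cultures of germline stem cells, embryonic stem (ES) cells of the R1 line, Trp53 knockout germline stem (GS) cells, whose title also names ICR, and GS cells, long-term cultures of spermatogonial stem cells. The mGS and ES cells were kept in a standard ES cell medium and both kinds of GS cells in a medium based on StemPro-34, so cell type and medium cannot be told apart. No age, strain of the GS cells or number of animals was given, so strain and genotype cannot be told apart in the comparison of knockout with control GS cells, and Trp53 itself was not analysed here.

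With 1 array per group, no difference has a replicate check, no p-value is given and differences are described by size. Signals are quantile normalized intensities, which have no unit and can be compared between arrays for 1 probe set but not between probe sets. The floor was the array median, a signal of 82.7. Lower values were raised to it, so a difference against one of them is a bound, given as "at least". No difference was taken where both arrays were under the floor. Scatter between separate probe sets of a gene was taken within each pair of arrays, where both were above the floor. It can include differences between transcripts and holds no variation between cultures, RNA preparations or hybridisations. Its standard deviation on log2 differences was 0.50 for mGS against GS, 0.61 for ES against GS, 0.49 for knockout GS against GS and 0.45 for ES against mGS. The first 3 of these comparisons share the GS array.

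The array labels were set against marker lists. Of 15 pan-germ cell genes, 12 were above the floor on the mGS and 6 on the ES array, against 15 on the knockout GS array and 15 on the GS array. Relative to GS, 13 were 2-fold or more lower on the mGS array, against 16.5% of all genes, and 0 as much higher, against 15.3%. On the ES array 14 were lower, against 17.2%, and 0 higher, against 17.4%. The median log2 differences were -3.10 for mGS and -4.45 for ES. Of 17 pluripotency genes, 17 were above the floor on the mGS and 17 on the ES array, against 10 on the knockout GS array and 8 on the GS array. Over all 18193 genes, 12897 were above it on some array. Relative to GS, 17 pluripotency genes were 2-fold or more higher on the mGS array, against 15.3% of all genes. On the ES array 15 were as much higher, against 17.4%. None was as much lower, against 16.5% on the mGS and 17.2% on the ES array. The added poly-A control dap read 255 on the mGS array, 2545 on the ES array, 3055 on the knockout GS array and 271 on the GS array. The hybridisation control bioC read 602 on the knockout GS array and between 3066 and 3499 on the others. The part of these controls in the results was not tested.

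The markers work at several levels. Zbtb16 and Foxo1 encode transcription factors that keep spermatogonia in the stem cell pool, and FOXO1 is held out of the nucleus by PI3K-AKT signalling. Itga6, Thy1, Cxcr4 and Mcam encode surface proteins by which such cells are sorted or bind to their niche, and Uchl1 and Upp1 encode enzymes. Several of them mark other cells too: Thy1 fibroblasts and T cells, Uchl1 neurons, Mcam and Itga6 endothelial cells, and Cxcr4 leukocytes.

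Promoter sequences from RefSeq on GRCm38.p6 were matched by symbol for 5 of the 9 genes, Foxo1, Uchl1, Cxcr4, Mcam and Upp1. Each window runs from 250 bases before to 50 after an annotated start, on the plus strand of the genome in the sequences shown. Those of Mcam and Upp1 are printed because these genes had the largest differences in each direction between mGS and GS cells among the 5. Mcam stands in for Zbtb16, a choice made after its values were seen. The Mcam window lies at chr9:44134408-44134707. For Upp1, which has 3 annotated starts, the windows at chr11:9117758-9118057 and chr11:9118257-9118556 are shown. Capitals mark the GC box GGGCGG on either strand.
Mcam: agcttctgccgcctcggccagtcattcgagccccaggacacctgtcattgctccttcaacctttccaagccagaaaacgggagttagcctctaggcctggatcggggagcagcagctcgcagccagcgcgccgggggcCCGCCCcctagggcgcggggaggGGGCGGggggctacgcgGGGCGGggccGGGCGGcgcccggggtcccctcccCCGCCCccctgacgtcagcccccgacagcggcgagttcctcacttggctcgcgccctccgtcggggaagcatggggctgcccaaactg
Upp1 first start: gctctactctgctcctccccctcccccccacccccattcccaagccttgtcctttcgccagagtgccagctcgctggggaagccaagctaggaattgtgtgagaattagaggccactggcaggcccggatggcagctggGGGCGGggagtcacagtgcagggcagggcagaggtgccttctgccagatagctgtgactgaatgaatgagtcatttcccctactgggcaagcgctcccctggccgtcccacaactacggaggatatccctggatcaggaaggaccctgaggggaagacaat
Upp1 last start: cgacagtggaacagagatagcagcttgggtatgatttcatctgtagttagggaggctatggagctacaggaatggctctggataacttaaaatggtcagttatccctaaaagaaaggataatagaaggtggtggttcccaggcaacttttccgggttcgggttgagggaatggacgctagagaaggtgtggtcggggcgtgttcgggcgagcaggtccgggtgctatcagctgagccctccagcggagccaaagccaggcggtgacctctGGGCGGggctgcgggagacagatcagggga
The Mcam window held 29 CG dinucleotides and 5 GC boxes, and those of Upp1 held 7 and 13 CG dinucleotides and 1 GC box each. A median of 7 CG dinucleotides was found over 32851 windows of 300 bases, and 35.7% of them held a GC box. The Foxo1 window, with 31 CG dinucleotides and 5 GC boxes, was like that of Mcam, and the Uchl1 window held 9 CG dinucleotides and no GC box. Mcam alone of the 7 windows of these genes held the cyclic AMP response element TGACGTCA, found in 1.79% of all windows. On both strands, none of the 7 held the octamer ATGCAAAT, the FOXO site GTAAACA or the ETS site CCGGAAG, which were in 1.74%, 3.65% and 8.86% of all windows. The E-box CANNTG was in 72.3% of all windows and in those of Foxo1, Mcam and Upp1. A match to such letters describes the sequence and shows no binding.

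**Figure D1:**
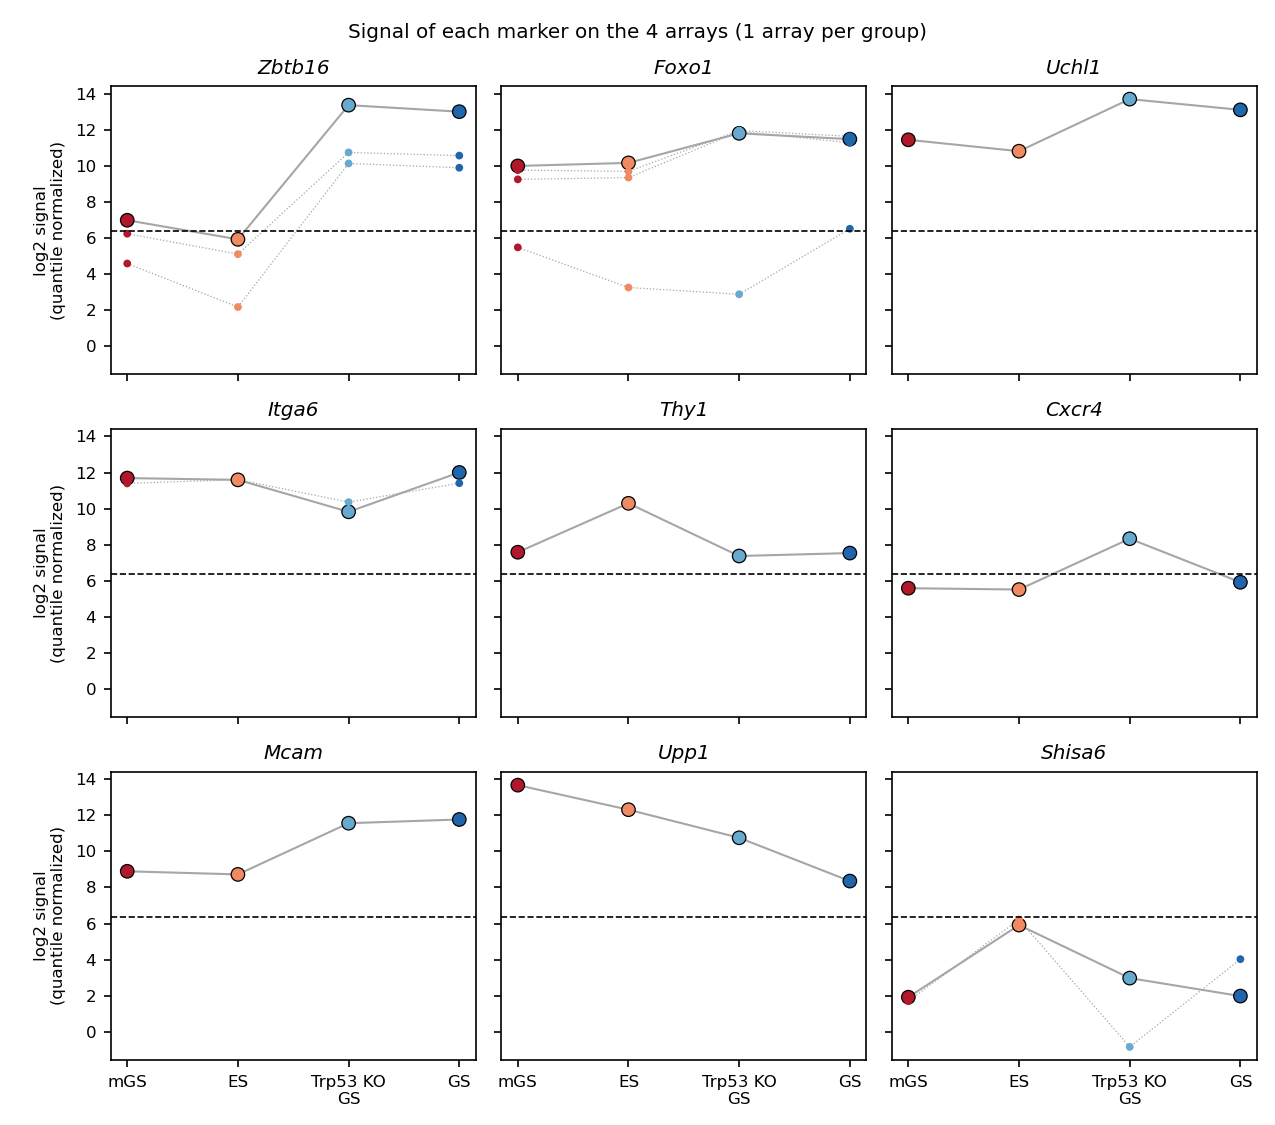
Log2 quantile normalized signal (y axis) of the 9 markers on the mGS, ES, Trp53 knockout GS and GS arrays (x axis), with large outlined points for the leading probe set, small points for the others and a dashed line at the floor. Zbtb16, Foxo1, Uchl1 and Mcam lay lower in mGS and ES cells than in either GS culture, Upp1 lay higher, Thy1 stood out on the ES array, Cxcr4 on the knockout GS array, and Shisa6 stayed under the floor.

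Between mGS and GS cells the markers went in opposite directions. Of the 7 that gave a difference, Zbtb16, Mcam, Uchl1 and Foxo1, 4 in all, were 2-fold or more lower on the mGS array, 1 was 2-fold or more higher (Upp1), and Itga6 and Thy1 lay within 2-fold. Over all 11981 genes compared, 16.5% were at least 2-fold lower and 15.3% at least 2-fold higher. The median log2 difference was -1.48 for the markers and -0.04 for all genes. With bulk RNA, fewer cells that express a gene and less RNA per cell cannot be told apart.

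ES against GS cells gave a similar division, with 4 of 7 markers (Zbtb16, Mcam, Uchl1 and Foxo1) reduced by 2-fold or more on the ES array, against 17.2% of 12107 genes, and 2 raised by as much, against 17.4%. The higher ones were Upp1 and Thy1, and the median was -1.32, against -0.03 for all genes. In the knockout GS cells 5 of the 8 markers compared lay within 2-fold of GS. Of the 8, 2 were at least 2-fold higher (Upp1 and Cxcr4), against 9.77% of 11623 genes, and 1 was at least 2-fold lower (Itga6), against 6.93%. The median was 0.34, against 0.07 for all genes. Between ES and mGS cells 1 of 7 markers was at least 2-fold higher (Thy1), against 6.9% of 11816 genes, and 1 at least 2-fold lower (Upp1), against 5.13%, with a median of -0.17 against 0.00 for all genes.

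Set against the knockout GS array in place of GS, 5 of 8 markers were 2-fold or more lower on the mGS array, against 21.7% of 12202 genes, and 2 as much higher, against 17.3%. On the ES array 5 of 8 were lower, against 21.5% of 12325 genes, and 3 higher, against 18.8%. Cxcr4 joined the lower markers in both, and Itga6 the higher ones.

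**Figure D2:**
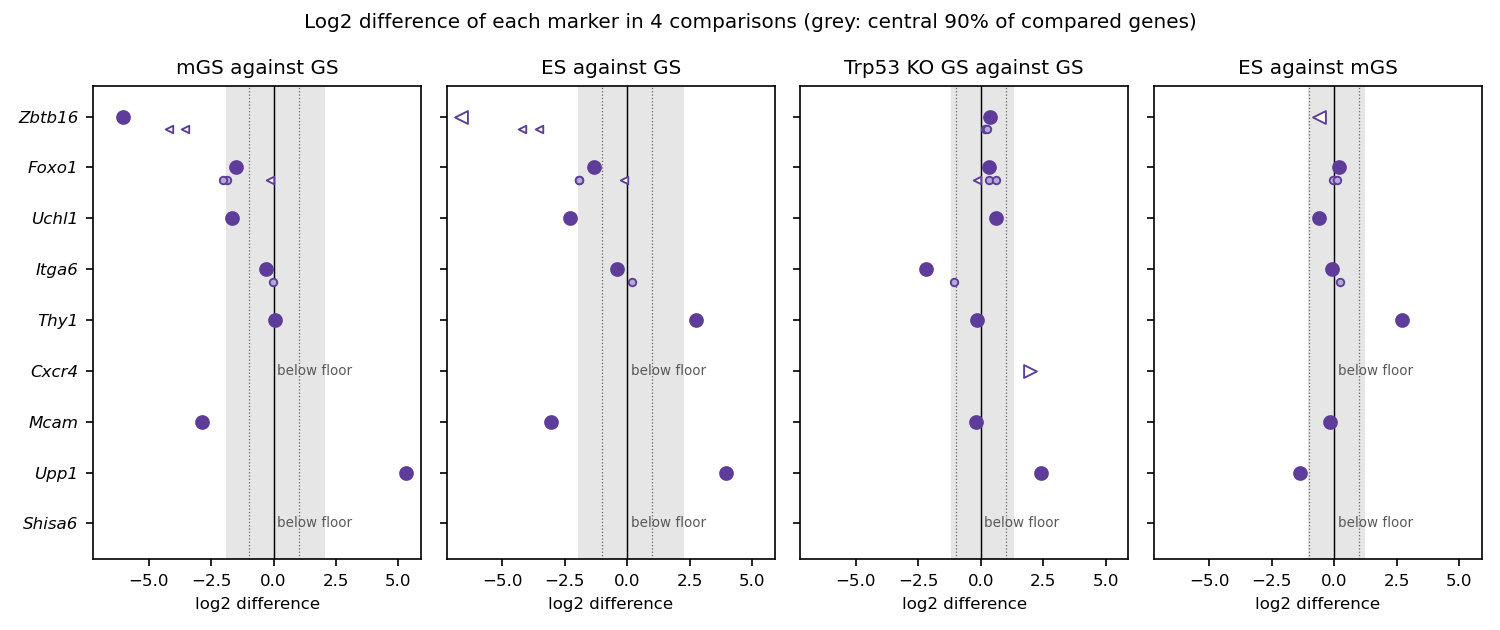
Log2 difference (x axis) of each marker (rows) in 4 comparisons, with large symbols for the leading probe set, small ones for the others, open triangles for bounds dotted lines at 2-fold and grey for the central 90% of compared genes. By the leading probe set, Zbtb16, Mcam and Upp1 lie outside the grey range for mGS against GS, while Itga6, Cxcr4 and Upp1 do so for knockout GS against GS and Thy1 and Upp1 for ES against mGS.

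Zbtb16 encodes PLZF, a zinc finger repressor without which the spermatogonial stem cell pool is lost with age in mice. Its leading probe set read 127 on the mGS and 60.9 on the ES array, the second under the floor, against 10557 on the knockout GS array and 8212 on the GS array. The gene was thus near or under the floor in both ES medium cultures and far above it in both GS cultures. On the mGS array it was 64.8-fold lower than on the GS array and 83.3-fold lower than on the knockout GS array. In the first of these comparisons 6 genes of 11981 had a lower difference. On the ES array it was at least 99.3-fold lower than on the GS array. The knockout GS and GS arrays lay within 1.29-fold.

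The other probe sets of Zbtb16 gave the same order. One read 75.6 on the mGS and 34.5 on the ES array, against 1715 on the knockout GS array and 1519 on the GS array. Another read 24.0 on the mGS and 4.52 on the ES array, against 1124 on the knockout GS array and 954 on the GS array. Both were under the floor on both ES medium arrays, so for mGS against GS they give bounds, at least 18.4-fold and at least 11.5-fold lower. For ES against mGS the leading probe set was at least 1.53-fold lower, and without a floor the log2 difference was -1.06.

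Foxo1 encodes the forkhead factor FOXO1, which spermatogonial stem cells need for their upkeep in mice. It read 1021 on the mGS and 1148 on the ES array, against 3575 on the knockout GS array and 2858 on the GS array. The signal stayed well above the floor in every culture, unlike that of Zbtb16. Relative to GS it was 2.80-fold lower in mGS and 2.49-fold lower in ES cells. A further 2 probe sets put it 3.66-fold and 4.09-fold lower in mGS cells, and 3.85-fold and 3.82-fold lower in ES cells. The leading probe set, whose suffix marks probes shared by several transcripts, thus gave the smallest of these 3 differences. The fourth was under the floor on all arrays but that of GS, where it read 91.4. For knockout GS against GS, the 3 probe sets above the floor gave 1.25-fold, 1.25-fold and 1.54-fold higher.

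Uchl1 encodes a ubiquitin hydrolase that is abundant in spermatogonia and neurons. The signal was 2787 on the mGS and 1798 on the ES array, against 13308 on the knockout GS array and 8806 on the GS array. Relative to GS it was 3.16-fold lower in mGS and 4.90-fold lower in ES cells. The knockout GS array was 1.51-fold above GS, and the ES array 1.55-fold below mGS, both within 2-fold. Signals of 12 neuronal genes summed to 10721 on the mGS and 11937 on the ES array, against 2417 on the knockout GS array and 5679 on the GS array. Of these 12, 8 were above the floor on the mGS and 8 on the ES array, against 6 on the knockout GS array and 6 on the GS array. They did not share a course: Stmn2 read 6122 on the mGS and 6865 on the ES array, against 99.3 on the knockout GS array and 41.6 on the GS array, while Nefm read 209 on the mGS array, 204 on the ES array, 249 on the knockout GS array and 4571 on the GS array. Their part in the Uchl1 levels was not tested.

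Mcam encodes a cell adhesion molecule of the immunoglobulin family. It read 477 on the mGS and 423 on the ES array, against 3026 on the knockout GS array and 3489 on the GS array. Both ES medium arrays lay 2-fold or more below both GS arrays, as did 8.38% of 12897 genes above the floor on some array. Relative to GS, Mcam was 7.32-fold lower in mGS and 8.25-fold lower in ES cells, and the arrays within each medium differed by 1.13-fold and 1.15-fold. In mGS against GS, 191 of 11981 genes had a lower difference. The values rest on 1 probe set.

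Zbtb16, Foxo1, Uchl1 and Mcam were the 4 markers that differed from both GS arrays by 2-fold or more, downwards, in mGS and ES cells alike. Over the 4 cross pairs the smallest gap was 64.8-fold for Zbtb16, 6.34-fold for Mcam, 3.16-fold for Uchl1 and 2.49-fold for Foxo1. Of 12897 genes above the floor on some array, 8.38% met this criterion, and 7.65% met it upwards. Upp1 was the 1 marker in that second class, with a smallest gap of 2.94-fold.

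Upp1 encodes uridine phosphorylase, which splits uridine into uracil and ribose phosphate. Its signal was 13055 on the mGS array, 5082 on the ES array, 1727 on the knockout GS array and 328 on the GS array. Every array differed from the next in this order by more than 2-fold, so no neighbours lay close. Upp1 was 39.9-fold higher on the mGS array than on the GS array, where 24 of 11981 genes had a higher difference. Relative to GS it was 15.5-fold higher in ES cells and 5.27-fold higher in knockout GS cells, and 63 of 11623 genes had a higher difference in the last comparison. The ES array was 2.57-fold lower than the mGS array. Upp1 lies on chromosome 11, whose genes as a group were higher on the mGS array than the rest of the genome by 0.26 on the log2 scale against GS, and had a difference of medians of -0.38 for ES against mGS. Chromosome 1 gave differences of medians of 0.32 and -0.38 in the same 2 comparisons. The part of the chromosome 11 shift in the Upp1 values was not tested.

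Of 13 genes of uridine and pyrimidine handling compared for mGS against GS, 3 were 2-fold or more higher, against 15.3% of all genes, and 2 as much lower, against 16.5%. These counts are near the shares of all genes, and the median was -0.20. The higher ones were the nucleoside transporter gene Slc29a1, 9.02-fold, the uridine kinase gene Uck2, 2.74-fold, and Dhodh, of pyrimidine synthesis, 2.55-fold. The lower ones were Cad, of the same synthesis, 2.74-fold, and the cytidine deaminase gene Cda, at least 2.21-fold. For ES against GS, Slc29a1 was 5.63-fold, Dhodh 3.78-fold and Uck2 2.29-fold higher, while Cda and Upb1 were at least 2.21-fold and 2.81-fold lower. For knockout GS against GS none of 13 was 2-fold higher, against 9.77% of all genes, and 2 were as much lower, against 6.93%. The lower ones were Tk1, 3.88-fold, and Upb1, at least 2.81-fold. The related phosphorylase gene Upp2 was under the floor on all 4 arrays.

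Itga6 encodes the alpha subunit of a laminin receptor used to enrich spermatogonial stem cells. The leading probe set read 3312 on the mGS and 3094 on the ES array, against 907 on the knockout GS array and 4109 on the GS array. Here the knockout GS array was the low one, and the others lay within 1.33-fold of GS. Itga6 was 4.53-fold lower on the knockout GS array than on the GS array, where 87 of 11623 genes had a lower difference. The second probe set read 2699 on the mGS and 3119 on the ES array, against 1314 on the knockout GS array and 2725 on the GS array. It gave the same order of knockout and GS cells but 2.07-fold. Against the knockout GS array, mGS cells were 3.65-fold and ES cells 3.41-fold higher on the leading probe set.

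Of 17 partners and ligands of the surface markers compared for mGS against GS, 8 were 2-fold or more higher, against 15.3% of all genes, and 9 lay within 2-fold. None was as much lower, against 16.5%, a count of 0 that was 1 on the deposited intensities and 3 without a floor. The laminin chain genes Lama1, Lama3 and Lamc1 were 7.55-fold, 4.13-fold and 3.79-fold higher in mGS than in GS cells, and the Wnt receptor gene Fzd7 was 2.96-fold higher. For ES against GS, 9 of 15 were 2-fold or more higher, against 17.4% of all genes, and 1 as much lower, against 17.2%. The lower one was Lama3, by 5.34-fold, and the integrin gene Itgav was 7.24-fold higher. The beta partner gene of Itga6, Itgb1, read 1294 on the mGS and 2593 on the ES array, against 2045 on the knockout GS array and 1641 on the GS array. Its log2 differences were -0.34 for mGS, 0.66 for ES and 0.32 for knockout GS against GS. The other beta partner, Itgb4, was above the floor on the mGS array alone, at 94.0. For knockout GS against GS, 1 of 15 was 2-fold or more higher, against 9.77% of all genes, and 2 as much lower, against 6.93%. Lamb1 was 2.93-fold higher, and Itga3 and Fzd7 were 3.16-fold and 2.05-fold lower.

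Cxcr4 encodes the receptor for the chemokine CXCL12, which holds spermatogonial stem cells near their niche. It read 48.2 on the mGS array, 45.7 on the ES array and 60.5 on the GS array, all under the floor, and 322 on the knockout GS array. It was at least 3.90-fold higher on the knockout GS array than on each of the other 3. Against GS, 136 of 11623 genes had a higher difference. The ligand gene Cxcl12 read 106 on the mGS and 515 on the ES array, against 182 on the knockout GS array and 121 on the GS array. It was 4.24-fold higher on the ES array than on the GS array and within 2-fold in knockout GS cells. Ackr3, which encodes the other receptor of CXCL12, read 963 on the mGS and 677 on the ES array, against 60.5 on the knockout GS array and 31.8 on the GS array. Relative to GS it was at least 11.7-fold higher in mGS and at least 8.19-fold higher in ES cells.

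Thy1 encodes a small glycoprotein anchored in the membrane by a lipid. It read 192 on the mGS array, 1256 on the ES array, 166 on the knockout GS array and 186 on the GS array. The ES array stood alone, and the other 3 lay within 1.16-fold of each other and not far above the floor. Thy1 was 6.77-fold higher on the ES array than on the GS array and 6.55-fold higher than on the mGS array, where 82 of 11816 genes had a higher difference. Signals of 20 fibroblast genes summed to 24086 on the mGS array, 94979 on the ES array, 8623 on the knockout GS array and 5189 on the GS array. Single genes weighed heavily in the mGS sum, with Fn1 at 10096 and Vim at 7871. The median signal of the 20 was 243 on the mGS array, 2813 on the ES array, 266 on the knockout GS array and 109 on the GS array. Of these 20, 13, 19, 14 and 11 were above the floor in the same order, and Lum was under it on all 4 arrays. For ES against mGS, 18 of the 19 compared were 2-fold or more higher, against 6.9% of 11816 genes. The median was 2.98, against 0.00 for all genes. For ES against GS, 18 of 19 fibroblast genes were also 2-fold or more higher, against 17.4% of all genes, with a median of 4.61. Their part in the Thy1 value was not tested.

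Markers of other cells that carry these surface proteins were counted too. Of 13 leukocyte genes, 4 were above the floor on the mGS array, 5 on the ES array, 4 on the knockout GS array and 4 on the GS array, and 8 were under it on all (Ptprc, Cd3e, Cd3g, Cd4, Cd79a, Itgam, Adgre1 and Tyrobp). Cd68 was above it on all 4, at 970 on the mGS array, 134 on the ES array, 203 on the knockout GS array and 177 on the GS array, and so was Coro1a, while Laptm5, Csf1r and Cd8a were above it on 3. The summed signal of the 13 was 1867 on the mGS array, 1240 on the ES array, 981 on the knockout GS array and 1303 on the GS array. The 12 endothelial genes summed to 3638 on the mGS array, 1606 on the ES array, 1320 on the knockout GS array and 1112 on the GS array, and Cdh5, Kdr, Tie1 and Emcn were under the floor on all. Pecam1 was above it on all 4, at 1616 on the mGS array, 332 on the ES array, 126 on the knockout GS array and 108 on the GS array. So was Egfl7, at 863 on the mGS array, 430 on the ES array, 258 on the knockout GS array and 703 on the GS array, and Vwf read 613 on the knockout GS array. The part of the leukocyte and endothelial genes in the levels of Cxcr4 and Mcam was not tested. Of 12 Sertoli cell genes, 5, 7, 2 and 4 were above it on the mGS, ES, knockout GS and GS arrays, and Amh, Fshr, Inha, Cldn11 and Dhh were under it on all, while Wt1 was above it on all. Their summed signal was 12167 on the mGS array, 3104 on the ES array, 715 on the knockout GS array and 906 on the GS array. Single genes weighed heavily in these sums: Rhox5 read 7866 on the mGS and 1624 on the ES array, and Aard 3033 and 502. Of 9 Leydig or peritubular cell genes, 3, 4, 2 and 1 were above the floor, and their summed signal ranged between 391 on the GS array and 985 on the ES array.

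Shisa6 encodes a membrane protein that dampens Wnt signalling in undifferentiated spermatogonia of mice. Its leading probe set read 3.78 on the mGS array, 60.4 on the ES array, 7.87 on the knockout GS array and 3.94 on the GS array. The other read 3.25, 74.6, 0.560 and 16.3 in the same order. All 8 values were under the floor, the ES array was the highest on both probe sets, and no difference was taken from either. Of the Wnt genes in the partner list, Wnt5a was above the floor on the ES array alone, at 311, Wnt3a on the mGS array alone, at 84.5, and Wnt6 on the mGS and knockout GS arrays, at 128 and 99.3.

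Other genes known from undifferentiated spermatogonia were listed alongside, and 32 of them were measured. For mGS against GS, 16 of 30 compared were 2-fold or more lower, against 16.5% of all genes, and 4 as much higher, against 15.3%, and the median was -1.92. Those with the largest differences were the pluripotency and spermatogonial gene Utf1, 37.1-fold higher, the GDNF receptor genes Gfra1, 16.1-fold lower, and Ret, by at least 25.1-fold, and the early growth response genes Egr4 and Egr2, at least 16.05-fold and 15.7-fold lower. For ES against GS, 18 of 30 were lower, against 17.2% of all genes, and 6 higher, against 17.4%, and the median was -1.47. The germ cell transcription factor genes Sohlh2 and Dmrt1 were 24.3-fold and 17.0-fold lower in ES than in GS cells. For ES against mGS, 2 of 25 were lower, Sohlh2 by 3.88-fold and Dmrt1 by 2.50-fold, against 5.13% of all genes. A further 3 were higher, against 6.9%, and the median was 0.10.

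For knockout GS against GS this list had a median of -0.72, while the markers had a median of 0.34. In it 12 of 30 genes were 2-fold or more lower, against 6.93% of all genes, and 4 as much higher, against 9.77%. The E-cadherin gene Cdh1 was at least 18.6-fold lower and the LIM homeobox gene Lhx1 at least 10.7-fold lower. Egr2 and the ETS factor gene Etv5 were 3.90-fold and 3.85-fold lower. Neurog3, also in this list of undifferentiated spermatogonia genes, was 4.14-fold higher. Id4, a helix-loop-helix inhibitor gene of the stem cell fraction, read 308 on the mGS and 361 on the ES array, against 2443 on the knockout GS array and 2750 on the GS array. Like Zbtb16, Foxo1, Uchl1 and Mcam, it lay within 2-fold between the knockout GS and GS arrays. The 12 lower genes of the list included Gfra1, 2.39-fold, and Ret, 2.83-fold lower on the knockout GS array. Of 15 pan-germ cell genes, 4 were 2-fold or more higher on the knockout GS array, against the same 9.77%, and 2 as much lower, against 6.93%.

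**Figure D3:**
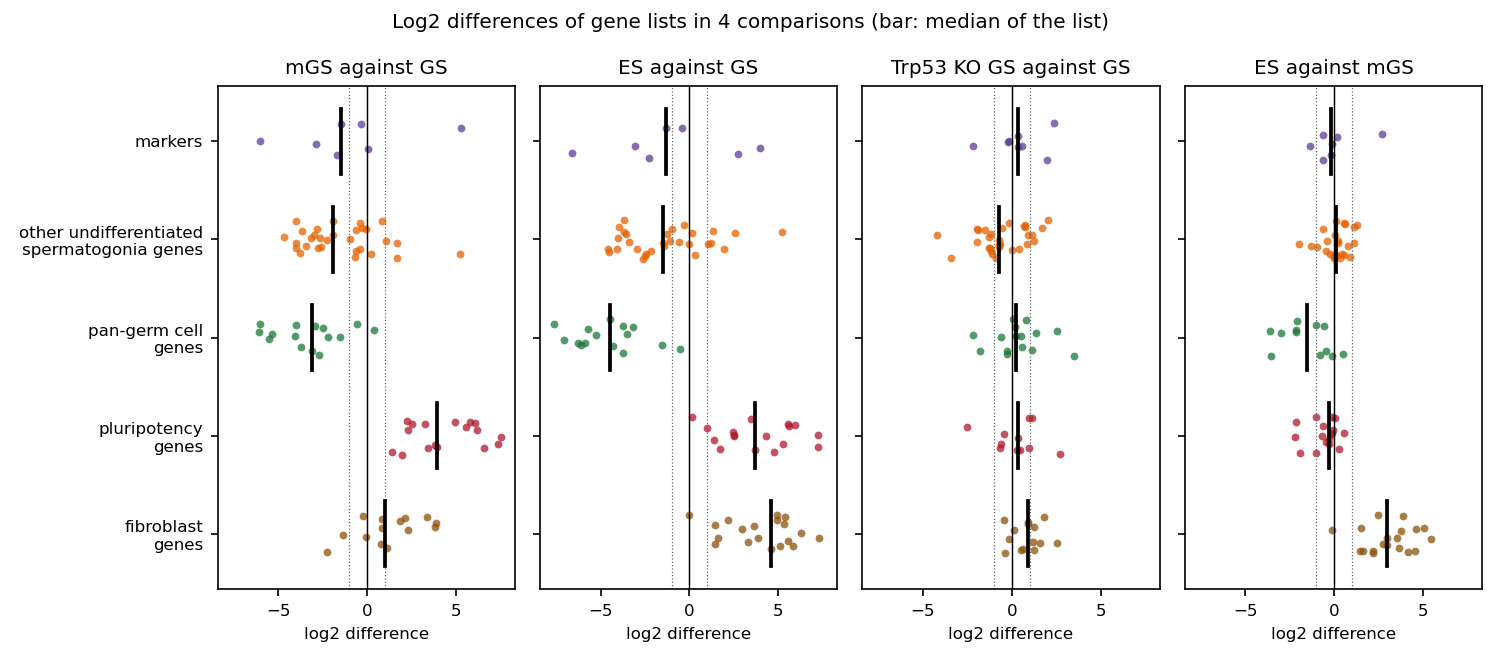
Log2 differences (x axis) of the markers and of 4 gene lists (rows) in 4 comparisons, with 1 point per gene compared, a black bar at each list's median and dotted lines at 2-fold. Medians of the markers and of the other undifferentiated spermatogonia genes lie below 0 for mGS and ES against GS. Fibroblast genes have the highest median of the rows for ES against GS, 4.61, and for ES against mGS, 2.98. They also have it for knockout GS against GS, 0.94.

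Genes with the most similar course over the 4 arrays were sought for the 6 markers that ranged over at least 2 log2 units. Likeness was the root mean square difference of log2 values, each gene centred on its own mean, among 12285 genes, and 4 arrays make this a description only. Nearest to Zbtb16 were Taf7l, a germ cell TFIID subunit gene, at 0.16, Tex101, a germ cell surface glycoprotein gene, at 0.20, and Tktl1 at 0.22. Nearest to Upp1 was the pluripotency factor gene Klf2, at 0.30, which read 6139 on the mGS array, 3002 on the ES array, 706 on the knockout GS array and 110 on the GS array. Alpl, the alkaline phosphatase gene, followed at 0.41 and Lrrc34 at 0.47.

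Itga6 lay nearest to the chromatin remodelling gene Arid2, at 0.04, the topoisomerase gene Top2a, at 0.05, and the thymidine kinase gene Tk1, at 0.10. Top2a, a gene of dividing cells, read 10718 on the mGS and 9792 on the ES array, against 2841 on the knockout GS array and 14027 on the GS array. Thy1 lay nearest to Sema3c and Tgfb1i1, at 0.09 and 0.10, and to Ereg at 0.10, all of which were near or under the floor except on the ES array. Uchl1 lay nearest to Nphp4 at 0.03, Hbp1 at 0.06 and Retreg2 at 0.07. Mcam lay nearest to Krt24 at 0.09, Gsto2 at 0.11 and Scaper at 0.12. Among the markers themselves, Uchl1 and Mcam were the closest, at 0.44, followed by Foxo1 and Uchl1 at 0.46, and Zbtb16 and Upp1 were the farthest apart, at 5.03.

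**Figure D4:**
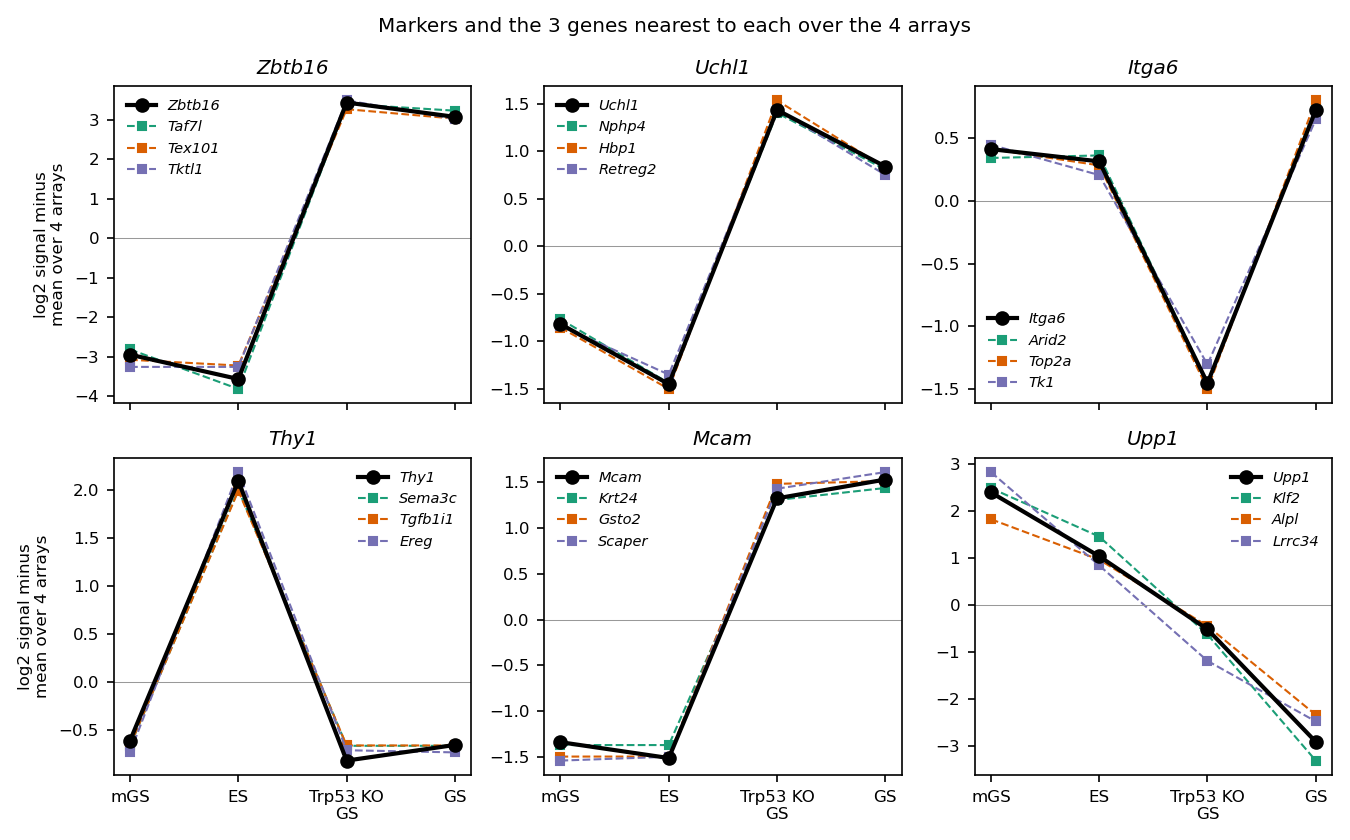
Log2 signal minus the gene's mean over the 4 arrays (y axis) on the mGS, ES, Trp53 knockout GS and GS arrays (x axis) for 6 markers (black) and the 3 genes nearest to each (colours), with values under the floor raised to it. Zbtb16 runs with Taf7l, Tex101 and Tktl1, Itga6 dips on the knockout GS array with Arid2, Top2a and Tk1, and Upp1 is highest on the mGS array and lowest on the GS array with Klf2, Alpl and Lrrc34.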

How the data were processed

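The files hold intensities that the authors deposited on a linear scale, 1 per probe set for each array. Per the labels' protocols, Trizol was used to extract the RNA and biotin to label it. The program behind these intensities is not stated here. All arrays share a mean of 500 once the outer 2% at either end is dropped, which points to a common scaling. Of 45101 probe sets, 64 controls were set aside. Quantile normalization on the log2 scale followed, which gives every array the same distribution and hides a change in total RNA. Names came from the platform's annotation: 34945 probe sets had 1 symbol, 932 several, which were left out, and 9160 none. Values under the array median, 6.37 on the log2 scale, were raised to it.

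The members and lists were chosen with earlier results of these data known, so no count is independent support. The genes named were all members, up to 5 per list and comparison by size among those 2-fold or more apart, and the 3 nearest to each member in course. Id4, Itgb1, Itgb4, the Wnt genes, Upp2, Foxo3, Foxo4 and the single markers of other cell types were added after their values were seen. So were Cxcl12 outside ES cells, and Gfra1 and Ret in knockout GS cells. Alternatives were other scalings, probe set rules and floors, and a pseudocount of 32. The steps were tested on simulated data. Versions were numpy 2.4.6, scipy 1.17.1, pandas 2.3.3 and matplotlib 3.10.9, under Python 3.11.15.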

Additional observations from a re-analysis of the deposited data

How the results depend on the processing

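All 10 alternatives of scaling, probe set rule and floor kept the direction and the 2-fold size of Zbtb16, Foxo1, Uchl1 and Upp1 for mGS and ES against GS, of Thy1 for ES against GS and mGS, and of Itga6, Cxcr4 and Upp1 for knockout GS against GS. So did the 9 that could be run for Mcam, whose 1 probe set drops out where suffixes that mark several transcripts are removed. Part of this agreement was fixed in advance. Uchl1, Thy1, Cxcr4, Mcam and Upp1 have 1 probe set each, so the probe set rules could not move their values. Uchl1 and Upp1 were above the floor on every array, so the other floors could not move them either. The log2 difference of Zbtb16 for mGS against GS ranged between -6.07 and -4.20, and that of Upp1 between 5.19 and 5.58. The median of the markers depended on the floor, because members under it then entered: for mGS against GS it was -0.91 with a floor at the 30th percentile, -0.33 with none and -0.45 with a pseudocount of 32, and for ES against GS -0.41, -0.41 and -0.41. Averaging each gene's probe sets gave an ES median of -2.11. With the knockout GS array in place of GS, 2 markers, Upp1 and Itga6, were raised by 2-fold or more in mGS cells. For ES against mGS, 2 markers were higher and 2 lower with a floor at the 30th percentile and with none, and 2 higher with the pseudocount. The added ones, Shisa6 and Zbtb16, have values near or under the floor on both arrays. Over all genes, 2747 of 18193 were higher and 2574 lower with no floor. With the floor at the array median, 815 of 11816 were higher and 606 lower. Centring on array medians in place of quantiles moved the all-gene median by -0.16 for knockout GS against GS, and for ES against mGS the move was -0.11. Under it Uchl1 stayed within 2-fold and Zbtb16 had a log2 difference of -0.02 for knockout GS against GS. Of the list counts under alternatives, with the swap to the knockout GS array as reference included, 901 stayed within 1.5 times and 191 did not. No paired analysis was possible because each group has 1 array. With 4 arrays and no replicate, precision cannot be estimated, and the scatter between probe sets within a pair of arrays does not measure it.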

Other observations

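For mGS against GS, 2 of 17 paralogues of the markers were 2-fold or more higher and 2 as much lower, near the shares of all genes, 15.3% and 16.5%, and the median was 0.16. Foxo3 read 1087 on the mGS and 739 on the ES array, against 1542 on the knockout GS array and 1117 on the GS array, and Foxo4 read 743 on the mGS and 463 on the ES array, against 300.2 on the knockout GS array and 412 on the GS array. Both lay within 2-fold of GS in every culture, while Foxo1 was 2.80-fold lower on the mGS array. Uchl5, a proteasome-bound relative of Uchl1, was 2.56-fold higher in mGS and 2.36-fold lower in knockout GS than in GS cells. Shisa3 was at least 5.57-fold and Shisa2 2.99-fold lower on the mGS array. Alcam and Bcam, adhesion genes of the same family as Mcam, were 7.14-fold and at least 12.6-fold higher in ES than in GS cells.

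Of 17 genes of FOXO1 and PI3K signalling, 3 were 2-fold or more higher and 2 as much lower in mGS than in GS cells, also near the shares of all genes, and the median was -0.17. Sgk1, a kinase gene whose product acts on FOXO factors, read 9614 on the mGS and 10635 on the ES array, against 4214 on the knockout GS array and 1924 on the GS array. Its log2 differences were 2.32 for mGS, 2.47 for ES and 1.13 for knockout GS against GS. The insulin receptor substrate gene Irs1 was at least 2.34-fold higher and the PI3K subunit gene Pik3r2 2.45-fold lower on the mGS array. Pdk1, in the list by its name although it encodes a pyruvate dehydrogenase kinase, was 3.09-fold higher on the knockout GS array than on the GS array.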
